A study of Mus musculus with 16 samples.

Results

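The genes described here are 10 that drive or police mitosis: the mitotic kinases Cdk1, Plk1, Aurka and Aurkb, the cyclin Ccnb1, the spindle checkpoint genes Bub1, Bub1b, Mad2l1 and Ttk, and the DNA topoisomerase Top2a. They were chosen by symbol, with earlier results of these data known. All 10 were found among the 24411 genes of the count and TPM tables. RNA was sequenced in 16 libraries of mouse celiac ganglia and tumors, in 5 groups. Transgene-free WT ganglia (4 libraries) carried no MYCN transgene and had wild-type Runx1t1. Transgene-free het ganglia (3 libraries) carried no MYCN transgene and were labelled as heterozygous for Runx1t1, with 1 functional allele. MYCN WT ganglia (3 libraries) and MYCN het ganglia (2 libraries) came from mice homozygous for Th-MYCN, with wild-type Runx1t1 and labelled Runx1t1 heterozygous, respectively. All ganglia were taken at 2 weeks of age. The remaining 4 libraries were tumors from mice with Th-MYCN on both alleles and intact Runx1t1, and the labels give no age for them. The labels do not say whether each library came from 1 animal. In the Th-MYCN model, kept on a 129/SvJ background, human MYCN is driven by the tyrosine hydroxylase (Th) promoter in sympathetic lineage cells. The Runx1t1 allele was an insertional inactivation, from the CBB6-Runx1t1tm1Fc/H line that was crossed with the Th-MYCN mice. The transgene has no row of its own in the table of mouse genes. The comparisons asked how far the mitotic RNAs of ganglia with the transgene lay from those of ganglia without it and from those of tumors, and whether the Runx1t1 label moved them.

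Entry into mitosis is driven by Cdk1 bound to cyclin B1, the product of Ccnb1. Plk1 and the Aurora kinases add to that drive and build the spindle. Aurora A acts at the centrosomes, and Aurora B is the kinase of the chromosomal passenger complex at the centromeres. The spindle checkpoint holds anaphase back until every kinetochore is attached. Its kinase Mps1 (Ttk) recruits Bub1, BubR1 (Bub1b) and Mad2 (Mad2l1) to unattached kinetochores, and BubR1 and Mad2 then block the anaphase-promoting complex. Top2a untangles sister DNA before it is pulled apart. RNA of these genes is high in cycling cells and low in cells that have left the cycle, such as mature sympathetic neurons. Aurora A is also known to stabilize MYCN protein.

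Many late cell cycle promoters share 2 short words, the CCAAT box, which NF-Y binds, and the cell cycle genes homology region (CHR), which MuvB complexes bind. RefSeq promoter windows on GRCm38.p6, from 250 bases before to 50 after the start, were found for 9 of the 10 genes. Aurkb had no entry. The words were searched on both strands as CCAAT, as the CHR form TTTGAA, as its forms CTTGAA and TTTAAA, and as the E-box CACGTG, which MYC proteins bind. The sequences below are shown because they hold the words that the genes share. Each is 120 bases on the gene's strand, 5′ to 3′, and ends before any annotated exon, so that it covers only a stretch of the window. Capitals mark the words, with the reverse complements ATTGG for CCAAT and TTCAAA for TTTGAA. Cdk1 lies at chr10:69352939-69353058 (minus strand), Plk1 at chr7:122159315-122159434 (plus), Aurka at chr2:172370571-172370690 (minus), Ttk at chr9:83834569-83834688 (plus) and Top2a at chr11:99024190-99024309 (minus).
Cdk1: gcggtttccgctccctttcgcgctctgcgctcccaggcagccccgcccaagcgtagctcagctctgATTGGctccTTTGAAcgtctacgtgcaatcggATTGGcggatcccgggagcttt
Plk1: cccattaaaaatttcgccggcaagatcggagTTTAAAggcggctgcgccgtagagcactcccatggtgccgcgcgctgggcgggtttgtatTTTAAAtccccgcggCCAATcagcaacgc
Aurka: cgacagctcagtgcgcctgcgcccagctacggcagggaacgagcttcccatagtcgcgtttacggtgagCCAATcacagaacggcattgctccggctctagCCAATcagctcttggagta
Ttk: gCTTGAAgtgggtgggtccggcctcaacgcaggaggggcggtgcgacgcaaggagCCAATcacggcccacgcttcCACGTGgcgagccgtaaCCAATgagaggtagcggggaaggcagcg
Top2a: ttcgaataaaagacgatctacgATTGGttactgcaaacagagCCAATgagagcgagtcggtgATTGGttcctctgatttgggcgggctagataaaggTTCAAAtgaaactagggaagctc

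CCAAT was present in 8 of the 9 windows, all but Mad2l1, against 37.4% of the 32851 windows of the table. At least 2 copies were present in 6 of the 9, against 11.7%. In Cdk1, Aurka and Ccnb1 a pair of CCAAT words began 32 bases apart. A CHR word stood in 7 of the 9 windows, against 36.3% of all windows, and was absent from the letters of Bub1 and Mad2l1. TTTGAA was the most frequent form, in 6 windows against 17.9%. In Bub1b, Aurka, Plk1 and Ttk its only match lay after the start, at positions 41, 33, 31 and 8, and so outside the printed stretches. TTTAAA stood in Aurka, Plk1 and Ccnb1 (13.2% of all windows) and CTTGAA in Aurka and Ttk (13.2%). CACGTG stood in Ttk alone, against 7.15%. None of the 34 matches overlapped another. A match describes these letters and no binding was measured.

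Runx1t1, the targeted gene, was read first. Its TPM was 2.78 to 4.41 in the transgene-free WT ganglia and 4.36 to 6.28 in the transgene-free het ganglia. It was 70.3, 7.90 and 37.4 in replicates 1, 3 and 4 of the MYCN WT ganglia, 8.83 and 16.9 in the MYCN het ganglia and 29.5 to 55.8 in the tumors. RNA did not separate the het label from wild-type in edgeR's quasi-likelihood test: the log2 difference was 0.41 (SE 0.52, adjusted p = 0.993) without the transgene and −1.74 (SE 0.66, adjusted p = 0.350) with it. The word labelled therefore stands for the genotype throughout.

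Library totals ran from 10692299 to 38618757 counts. 6 ganglion libraries held under 20000000 counts, both MYCN het ganglia among them, and no tumor did. Replicate 2 of the transgene-free WT ganglia stood apart from the other ganglia. It had the lowest total, a lymphocyte marker sum of 1196 TPM over 10 genes against 4.75 to 25.9 in the other 15 libraries, and a myeloid marker sum of 2257 TPM over 8 genes against 49.6 to 399.2 in the other 11 ganglia. Its sympathetic neuron markers summed to 5635 TPM over 14 genes, the lowest of the 12 ganglia. Its endothelial markers summed to 534.3 TPM over 6 genes, the highest of the 16 libraries and ahead of 299 TPM in the next. Its satellite glia and Schwann cell markers summed to 557.1 TPM over 8 genes, against 1279.5 to 2004.1 TPM in the other 6 transgene-free ganglia. All 10 lymphocyte markers were at their highest in it, and the T cell markers Cd3e and Cd8a were at 0 in every library with the het label. All 10 mitotic genes were also at their highest among the 7 transgene-free ganglia in it, by 2.01-fold (Mad2l1) to 8.29-fold (Aurkb) over the median of the other 6. The part of those other cells in its mitotic RNA was not tested. Results that rest on this library are given with and without it. In whole tissue, fewer cells of a type and less RNA per cell cannot be told apart.

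Tumors held far more mitotic RNA than ganglia without the transgene. All 10 genes rose in edgeR's test, and the fitted differences ran from 3.36 to 6.26 on the log2 scale, that is 10.3-fold for Mad2l1 to 76.7-fold for Ccnb1. Over all genes tested, 30.6% were called higher in the same comparison. The median log2 difference of the 10 genes was 5.27, beside −0.06 over all 16665 genes tested. Without transgene-free WT replicate 2 the folds ran from 11.5 (Mad2l1) to 117 (Ccnb1), with Plk1 at 82.6, Ttk at 79.2 and Top2a at 48.8. The genes are taken in turn by role, as TPM, a level scaled for gene length.

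Ccnb1, the cyclin, had 2.17, 13.1, 2.28 and 2.20 TPM in replicates 1 to 4 of the transgene-free WT ganglia. In replicates 1, 3 and 4 of the transgene-free het ganglia it had 1.27, 1.02 and 1.54 TPM. The tumors were at 119, 164, 130.2 and 158 TPM. Every tumor lay above every ganglion, and replicate 2 alone among the transgene-free ganglia exceeded 2.28 TPM. The log2 difference was 6.26 (SE 0.75, adjusted p = 1.00e-05, edgeR). In the MYCN WT ganglia Ccnb1 stood at 85.5, 6.19 and 40.2 TPM (replicates 1, 3 and 4) and in the MYCN het ganglia at 3.79 and 17.3 TPM (replicates 1 and 2). All 5 ganglia with the transgene exceeded the 6 transgene-free ganglia other than WT replicate 2. Cdk1, the kinase that Ccnb1 activates, had lower levels than Ccnb1 in tumors. It was at 62.1 ± 5.53 TPM in tumors (SD, n = 4) and at 0.680 to 2.54 TPM in 6 of the transgene-free ganglia, with 7.03 TPM in WT replicate 2. It was at 44.9, 3.27 and 26.9 TPM in the MYCN WT ganglia and at 2.41 and 7.35 TPM in the MYCN het ganglia. Its log2 difference between tumors and transgene-free ganglia was 5.48 (SE 0.65, adjusted p = 9.44e-06, edgeR). The ratio of Ccnb1 to Cdk1 TPM had a median of 1.37 over the 7 transgene-free ganglia, 1.89 over the 5 MYCN ganglia and 2.42 over the tumors, and the ranges overlapped.

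Plk1, which acts from mitotic entry to cytokinesis, was at 1.63, 12.2, 2.79 and 1.42 TPM in the transgene-free WT ganglia. The transgene-free het ganglia were at 1.05, 1.74 and 3.78 TPM. The tumors were at 79.9, 159, 129 and 136 TPM. No ganglion reached the lowest tumor, and the tumors themselves ranged widely, tumor 1 being the lowest. The log2 difference was 5.74 (SE 0.74, adjusted p = 1.74e-05, edgeR), the second largest of the 10. MYCN WT ganglia were at 58.0, 5.58 and 34.7 TPM, and MYCN het ganglia at 2.40 and 8.38 TPM. Replicate 1 of the MYCN het ganglia lay inside the range of the transgene-free ganglia other than WT replicate 2, whose highest value was 3.78 TPM.

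Aurka, the centrosomal Aurora kinase, gave the tightest tumor values, at 61.2, 64.4, 62.3 and 62.7 TPM. Transgene-free WT ganglia were at 2.61, 8.60, 2.49 and 2.75 TPM, and transgene-free het ganglia at 3.18, 2.06 and 2.64 TPM. Apart from WT replicate 2, the ganglia without the transgene were close to each other. Aurka rose by 4.71 on the log2 scale in tumors (SE 0.51, adjusted p = 4.67e-06, edgeR). It stood at 40.3, 5.40 and 20.9 TPM in the MYCN WT ganglia and at 3.90 and 8.60 TPM in the MYCN het ganglia, all above the 6 transgene-free ganglia other than WT replicate 2. Aurkb, the passenger complex kinase, was at 65.5 ± 8.98 TPM in tumors (SD, n = 4), about the same level as Aurka, with a ratio of Aurka to Aurkb between 0.824 and 1.07. Its ganglion values were 1.03 to 3.36 TPM in 6 transgene-free libraries and 16.4 TPM in WT replicate 2, the largest excess of that library for any of the 10 genes. Its log2 difference between tumors and transgene-free ganglia was 4.89 (SE 0.73, adjusted p = 5.45e-05, edgeR) and 5.56 (SE 0.60) without that library. MYCN WT ganglia held 39.1, 2.71 and 23.0 TPM of Aurkb, and MYCN het ganglia 2.34 and 8.06 TPM. The value of replicate 3 with wild-type Runx1t1 lay below the highest of the 6 transgene-free ganglia.

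Among the checkpoint genes, Bub1 rested on few counts in ganglia without the transgene, from 6 to 59 counts a library. It was at 0.280, 2.21, 0.720 and 0.460 TPM in the transgene-free WT ganglia and at 0.370, 0.450 and 1.16 TPM in the het ganglia. Tumors were at 25.3, 31.2, 26.1 and 33.3 TPM, with a log2 difference of 5.64 (SE 0.74, adjusted p = 2.07e-05, edgeR). The MYCN WT ganglia held 26.6, 1.48 and 12.5 TPM, so that replicate 1 lay above 2 of the tumors, and the MYCN het ganglia held 1.03 and 4.75 TPM. Ttk, the kinase at the head of the checkpoint, was as sparse, with 2 to 61 counts without the transgene. It was at 0.150 to 1.14 TPM in 6 transgene-free ganglia, at 4.30 TPM in WT replicate 2 and at 32.8 to 45.0 TPM in tumors. The log2 difference was 5.71 (SE 0.85, adjusted p = 5.61e-05, edgeR). It was at 26.7, 0.910 and 12.8 TPM in the MYCN WT ganglia and at 1.20 and 5.64 TPM in the MYCN het ganglia. MYCN WT replicate 3 had less Ttk than 2 of the transgene-free ganglia other than WT replicate 2, and its value rested on 27 counts.

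Bub1b, the BubR1 gene, was the most abundant of the 4 checkpoint genes in tumors, at 105.6, 183, 158 and 152 TPM. It was at 1.99 to 7.51 TPM in 6 transgene-free ganglia and at 21.9 TPM in WT replicate 2. The log2 difference was 5.06 (SE 0.63, adjusted p = 1.36e-05, edgeR). MYCN WT ganglia held 71.2, 7.87 and 34.7 TPM and MYCN het ganglia 7.31 and 19.0 TPM. Mad2l1 had the smallest difference of the 10. It was at 7.21, 11.2, 6.22 and 4.97 TPM in the transgene-free WT ganglia and at 2.66, 4.26 and 6.20 TPM in the het ganglia. Tumors were at 49.8, 48.6, 39.5 and 35.9 TPM, a log2 difference of 3.36 (SE 0.42, adjusted p = 1.39e-05, edgeR). MYCN WT ganglia held 36.9, 7.09 and 29.0 TPM, with replicate 1 above the lowest tumor, and MYCN het ganglia held 5.29 and 14.0 TPM. The proportions of the checkpoint RNAs differed between tissues. The ratio of Mad2l1 to Bub1b TPM was 0.513 to 2.39 over the 12 ganglia and 0.237 to 0.472 over the tumors, without overlap. The ratio of Bub1b to Bub1 was 2.67 and 2.77 in replicates 1 and 4 of the MYCN WT ganglia, below the 4.00 to 16.3 of the other 10 ganglia and the 4.18 to 6.05 of the tumors. These ratios were picked after the values were seen and were given no test.

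Top2a had the highest TPM of the 10 in every library. It was at 7.91, 52.6, 12.4 and 8.50 TPM in the transgene-free WT ganglia. In the het ganglia it was at 5.74, 5.60 and 10.5 TPM. Tumors were at 339.8, 305, 264 and 278 TPM, a log2 difference of 5.02 (SE 0.70, adjusted p = 3.21e-05, edgeR). MYCN WT ganglia held 249.5, 19.2 and 127 TPM and MYCN het ganglia 13.3 and 46.8 TPM, and all 5 exceeded the 6 transgene-free ganglia other than WT replicate 2. The proliferation marker Mki67, which is not one of the 10, ran alongside, with a ratio of Top2a to Mki67 TPM between 0.646 and 1.01 in all 16 libraries.

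**Figure D1:**
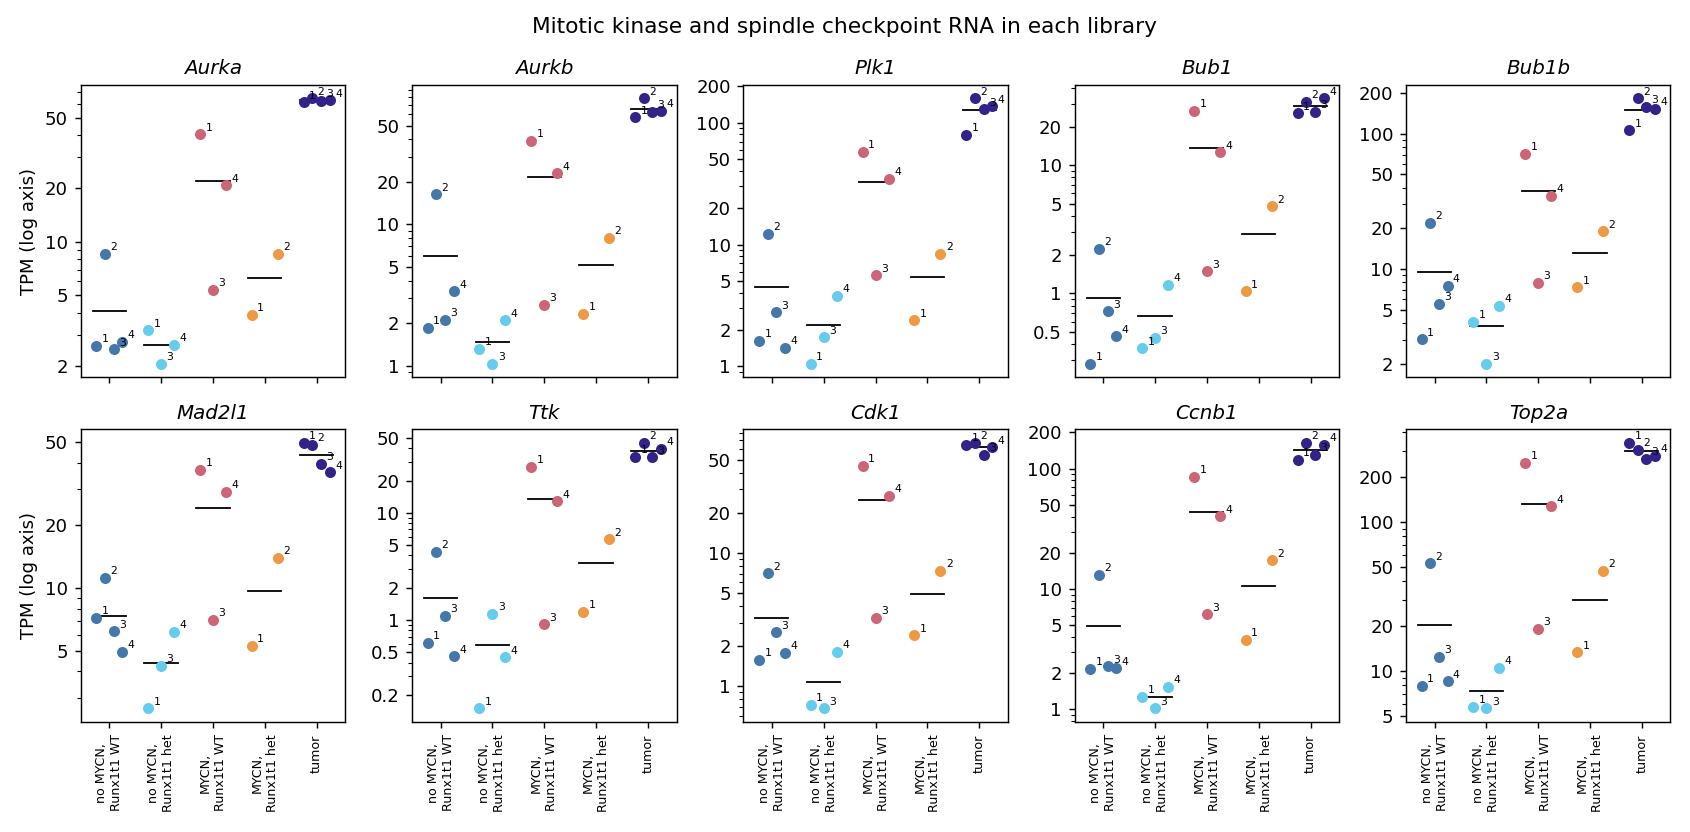
TPM on a log axis of each of the 10 genes, 1 point a library (numbers are replicates), with bars at group means. Tumors sit highest; MYCN WT replicate 3 sits near the transgene-free ganglia (Ccnb1 6.19 TPM) while replicates 1 and 4 reach 85.5 and 40.2 TPM.

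Every tumor exceeded all 12 ganglia for 8 of the 10 genes, where 6.06% of all genes tested did so. The exceptions were Bub1 and Mad2l1, each through replicate 1 of the MYCN WT ganglia. Without replicate 2 of the transgene-free WT ganglia all 10 genes stayed called in tumors against transgene-free ganglia, beside 33.4% of all genes, with a median log2 difference of 5.74. Cell type markers differed in the same comparison. All 8 satellite glia and Schwann cell markers and all 7 fibroblast markers were lower in tumors, as were 4 of 6 endothelial, 8 of 14 sympathetic neuron, 4 of 5 adrenal cortex and 1 of 9 tested lymphocyte markers, while 3 of 8 myeloid, 3 neuron and 1 of 2 tested lymphoid precursor markers were higher (edgeR, adjusted p under 0.05). Without transgene-free WT replicate 2, 7 of 8 myeloid markers and 2 of 7 tested lymphocyte markers were higher in tumors. The 8 satellite glia and Schwann cell markers summed to 13.8 to 21.4 TPM in tumors and to 487 to 2004 TPM in ganglia, and the 7 fibroblast markers to 178 to 541 TPM against 954 to 8168 TPM. The sympathetic neuron markers summed to 2921 to 4338 TPM in tumors and to 5635 to 17432 TPM in ganglia, so the labelled tissue carried its markers in all libraries. Myeloid markers summed to 342.5 to 1053 TPM in tumors, and the 10 lymphocyte markers to 5.79 to 25.9 TPM. How much of the mitotic difference went with cell composition was not tested. The 4 tumors came from mice of unstated age, so age and tissue cannot be told apart.

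**Figure D2:**
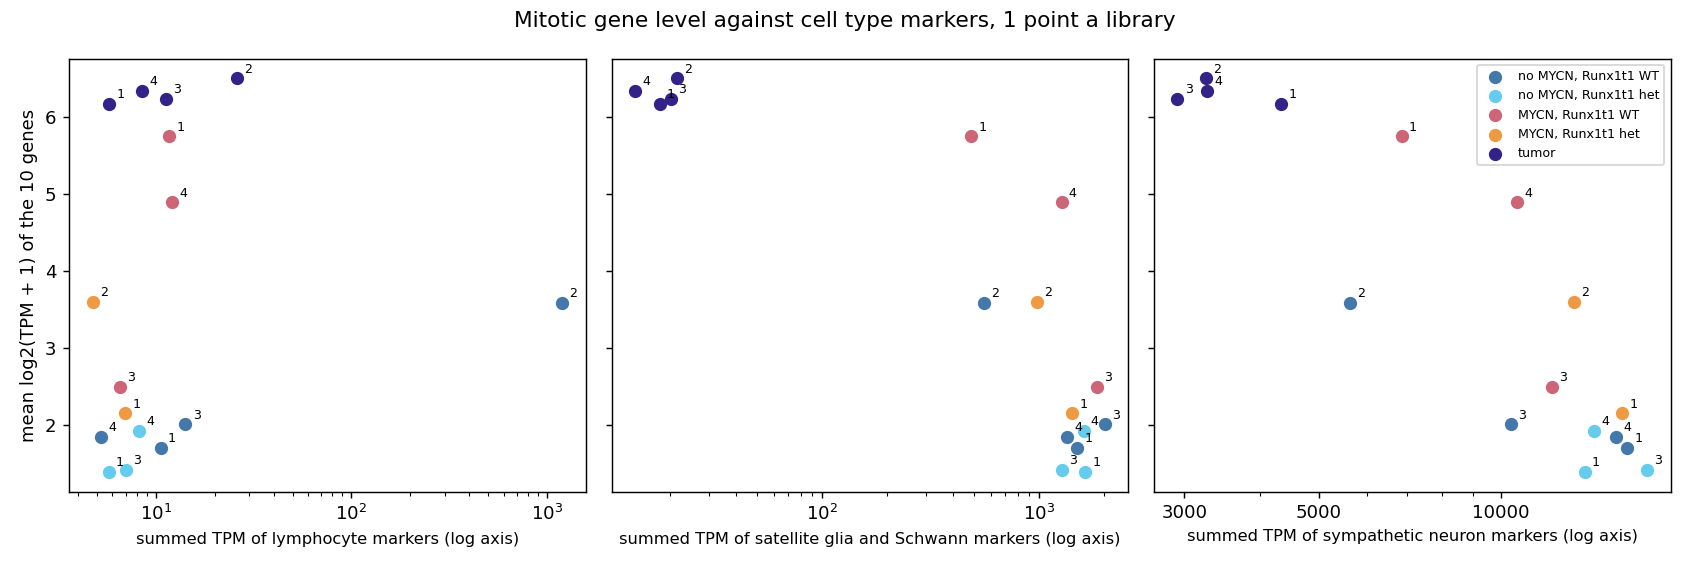
Mean log2(TPM + 1) of the 10 genes against the summed TPM of lymphocyte, glia and sympathetic neuron markers (log horizontal axes), 1 point a library, numbered by replicate. Transgene-free WT replicate 2 stands alone at 1196 TPM of lymphocyte markers, and tumors lie at 13.8 to 21.4 TPM of glia markers.

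Against MYCN WT ganglia, tumors were higher for every gene in fitted value, but few passed the threshold. Aurka rose by 1.84 on the log2 scale (SE 0.61, adjusted p = 0.0313, edgeR) and Bub1b by 2.31 (SE 0.76, adjusted p = 0.0317, edgeR). These 2 of 10 genes passed, beside 14.0% of all genes called higher, and 7 of the 10 were higher at an unadjusted p under 0.05, beside 20.1% of all genes. The other 8 had log2 differences from 1.20 (Mad2l1, adjusted p = 0.0883, edgeR) to 2.28 (Plk1, adjusted p = 0.0544, edgeR). Bub1 was the farthest from passing, at 1.42 (SE 0.83, adjusted p = 0.204, edgeR). The count moved with single libraries. It was 0 without tumor 2 or 4 or without MYCN WT replicate 3 or 4. Without MYCN WT replicate 1 it was 7, where 18.9% of all genes were called higher. The log2 differences of the 10 genes without MYCN WT replicate 1 ran from 1.73 (Mad2l1) to 3.27 (Bub1b). The genes called over the whole table, in either direction, went from 5755 of 16665 to 4901 of 16575 without tumor 2, 4781 of 16616 without tumor 4, 3549 of 16638 without MYCN WT replicate 3 and 4057 of 16608 without replicate 4. Among libraries of over 20000000 counts, which leaves out MYCN WT replicate 1 and other ganglia, all 10 were called, beside 20.5% of all genes. With all libraries kept, all 8 glia, all 7 fibroblast and 6 of 14 neuron markers were lower in tumors (edgeR), and no marker was called higher. Their part in the mitotic values was not tested.

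Of the ganglia, replicate 1 of the MYCN WT group came nearest to tumors. As a percentage of the mean tumor TPM, it reached 92.0% for Bub1, 84.9% for Mad2l1 and 84.0% for Top2a, but 46.1% for Plk1 and 47.6% for Bub1b. Its median over the 10 genes was 67.6%. Replicate 4 had a median of 34.6%, from 23.2% (Bub1b) to 66.7% (Mad2l1), and replicate 3 a median of 5.19%. Replicate 1 ranked first and replicate 4 second of the 12 ganglia for all 10 genes. MYCN het replicates 1 and 2 had medians of 3.73% and 13.2%. Transgene-free WT replicate 2 had a median of 12.6%, and the mean of the other 6 transgene-free ganglia lay at a median of 2.64%. So 2 of the 3 MYCN WT ganglia stood apart from the third, which overlapped the MYCN het ganglia. In replicate 1 the glia markers were also the lowest of the ganglia, at 487 TPM, and the neuron markers the second lowest, at 6856 TPM. Its fibroblast markers (953.7 TPM, next 1817.8), endothelial markers (32.8 TPM, next 47.5) and erythroid markers (369.9 TPM, next 792.7) were the lowest of the 12 ganglia as well. In replicate 4 the glia and neuron markers were at 1270 and 10644 TPM. The 6 transgene-free ganglia other than WT replicate 2 ran from 1279.5 to 2004 TPM of glia markers and from 10384 to 17432 TPM of neuron markers, so the glia sum of replicate 4 lay just below them. Over the whole comparison with transgene-free WT ganglia, no gene of any cell type list passed (edgeR), but all 9 tested lymphocyte markers had an unadjusted p under 0.05 and a median log2 difference of −5.95. The unadjusted p (edgeR) was also under 0.05 for 3 of 14 neuron, 1 of 6 endothelial and 1 of 2 tested lymphoid precursor markers. Without transgene-free WT replicate 2 only 7 lymphocyte markers passed the filter on low counts, with a median of −0.26, and the median of the 8 myeloid markers went from −0.67 to 1.04, with 2 of 8 at an unadjusted p under 0.05 and none passing. In that fit 4 of 14 neuron, 2 of 5 adrenal cortex and 1 of 7 lymphocyte markers also had an unadjusted p under 0.05 (edgeR). So did the 1 tested lymphoid precursor marker, and no marker passed. The myeloid sums of MYCN WT replicates 1 and 4, 399.2 and 230.2 TPM, lay above all 6 other transgene-free ganglia (49.6 to 199.2 TPM), and that of replicate 3, 118 TPM, lay among them. The part of these cells in the mitotic level was not tested.

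**Figure D3:**
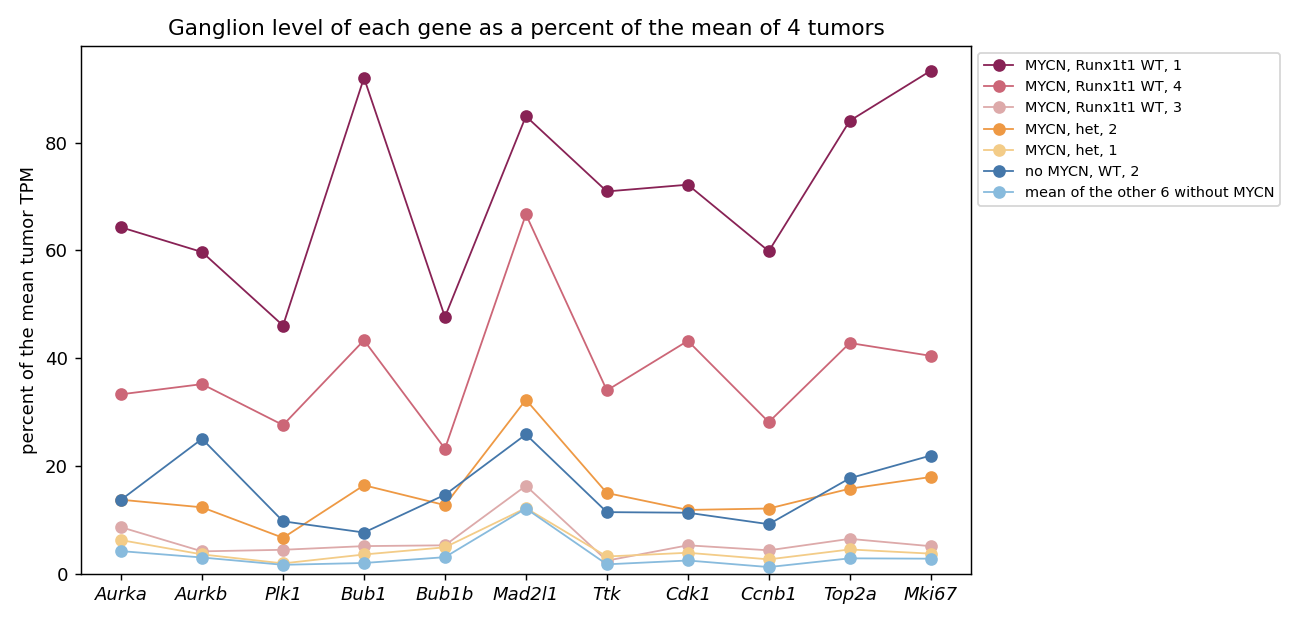
TPM of each gene, and of Mki67, in single ganglia as a percent of the mean of 4 tumors. Lines join the values of 1 library, or of the mean of the other 6 transgene-free ganglia. MYCN WT replicate 1 runs from 46.1% (Plk1) to 92.0% (Bub1) over the 10 genes, replicate 4 has a median of 34.6% and replicate 3 of 5.19%.

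Against MYCN het ganglia, tumors were higher for all 10 genes, beside 22.0% of all genes called higher. The log2 differences ran from 2.66 for Mad2l1 (SE 0.66, adjusted p = 0.00484, edgeR) to 5.03 for Plk1 (SE 1.21, adjusted p = 0.00402, edgeR), with a median of 3.96. This group had 2 libraries, and without its replicate 1 only Aurka of the 10 was called, beside 9.27% of all genes. That fit leaves 1 library in the group, which is assumed to vary like the other groups, and its folds for the 10 genes ran from 4.32 (Mad2l1) to 20.9 (Plk1). Without replicate 2 instead, the folds ran from 11.8 (Mad2l1) to 75.1 (Plk1). With both libraries kept, all 8 glia, all 7 fibroblast, 8 of 14 neuron, 4 of 5 adrenal cortex and 1 of 6 endothelial markers were lower in tumors (edgeR). Higher were 1 of 14 neuron and 1 of 2 tested lymphoid precursor markers. Their part in the mitotic values was not tested.

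Ganglia with and without the transgene were compared within each Runx1t1 label. With wild-type Runx1t1, all 10 genes were higher in fitted value with MYCN, at 3.42-fold for Mad2l1 to 15.9-fold for Bub1, but none was called. The log2 differences were 3.99 for Bub1 (SE 0.89, adjusted p = 0.0525, edgeR), 2.52 for Aurka (SE 0.60, adjusted p = 0.0599, edgeR) and 1.92 for Aurkb (SE 0.83, adjusted p = 0.226, edgeR). All 10 were higher at an unadjusted p under 0.05, beside 11.7% of all genes, and over all genes edgeR called 0.834% higher. DESeq2 called 9 of them (all but Aurkb), beside 6.11% of all genes called higher by DESeq2. The median log2 difference was 2.84, beside −0.04 over all genes. None of the 10 had all 3 MYCN WT ganglia above all 4 transgene-free WT ganglia, beside 4.93% of all genes that did, and MYCN WT replicate 3 lay below transgene-free WT replicate 2 for each of the 10.

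The count differed with libraries left out. Without transgene-free WT replicate 2, all 10 genes were called higher with MYCN, beside 3.46% of all genes, and the median log2 difference was 3.84. Their adjusted p values lay between 0.0323 and 0.0490 (edgeR), and over all alternatives the count ran from 0 to 10. Ccnb1 then rose 21.5-fold, Ttk 20.7-fold, Plk1 18.0-fold and Bub1 29.4-fold, whereas Mad2l1 rose 4.25-fold. MYCN WT and the 3 remaining transgene-free WT ganglia did not overlap for 7 of the 10 genes, beside 9.76% of all genes that lay higher with MYCN in the same way, and overlapped for Aurkb, Mad2l1 and Ttk. Leaving out MYCN WT replicate 1 as well took it back to 0 genes, at a median log2 difference of 2.93. With transgene-free WT replicate 2 left out, a replicate block or a term for library depth also gave 0 genes, of the 10 and of all genes tested, while the median log2 difference of the 10 was 3.57 with the block and 3.65 with the depth term. With all transgene-free libraries kept, 9 genes were called without MYCN WT replicate 3, beside 8.76% of all genes. Without MYCN WT replicate 1 instead, 0 of the 10 were called, and 0 of 16646 genes tested. The folds of the 10 then ran from 2.09 (Aurkb) to 7.52 (Bub1). Within libraries of over 20000000 counts (2 against 2) the median log2 difference was 2.87, with no gene called. Within those under it (1 against 2) the median was 3.15, where the single MYCN WT library gives no spread of its own.

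With the het label, MYCN ganglia were higher in fitted value for all 10 genes as well, but no gene was called by edgeR or DESeq2, and 2 (Ccnb1 and Cdk1) were higher at an unadjusted p under 0.05, beside 0.900% of all genes. Over all genes the share called higher was 0% by edgeR and 0.0580% by DESeq2. Ccnb1 had the largest log2 difference, 3.01 (SE 1.03), and Mad2l1 the smallest, 1.09 (SE 0.61), with an adjusted p of 1 for each of the 10 (edgeR). Both MYCN het ganglia exceeded all 3 transgene-free het ganglia for 7 of the 10 genes, beside 13.8% of all genes, the exceptions being Plk1, Bub1 and Mad2l1.

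With both labels together, all MYCN ganglia against all transgene-free ganglia, the median log2 difference was 2.23. None of the 10 genes was called by edgeR, beside 0.0420% of all genes called higher by edgeR, and 10 were higher at an unadjusted p under 0.05, beside 7.49% of all genes. DESeq2 called 9, beside 2.22% of all genes called higher by DESeq2. Without transgene-free WT replicate 2, 9 of 10 were called, all but Mad2l1, beside 1.15% of all genes. With the same library left out, a replicate block or a term for library depth took that count to 0 and left 0 genes called over the whole table, at median log2 differences of 2.39 and 2.57. Without that library and with no such term, Ccnb1 showed a log2 difference of 3.72 (SE 0.57) and Aurka of 2.22 (SE 0.41). All 5 MYCN ganglia exceeded the 6 other transgene-free ganglia for 3 of the 10 genes (Aurka, Ccnb1 and Top2a), beside 1.46% of all genes tested.

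**Figure D4:**
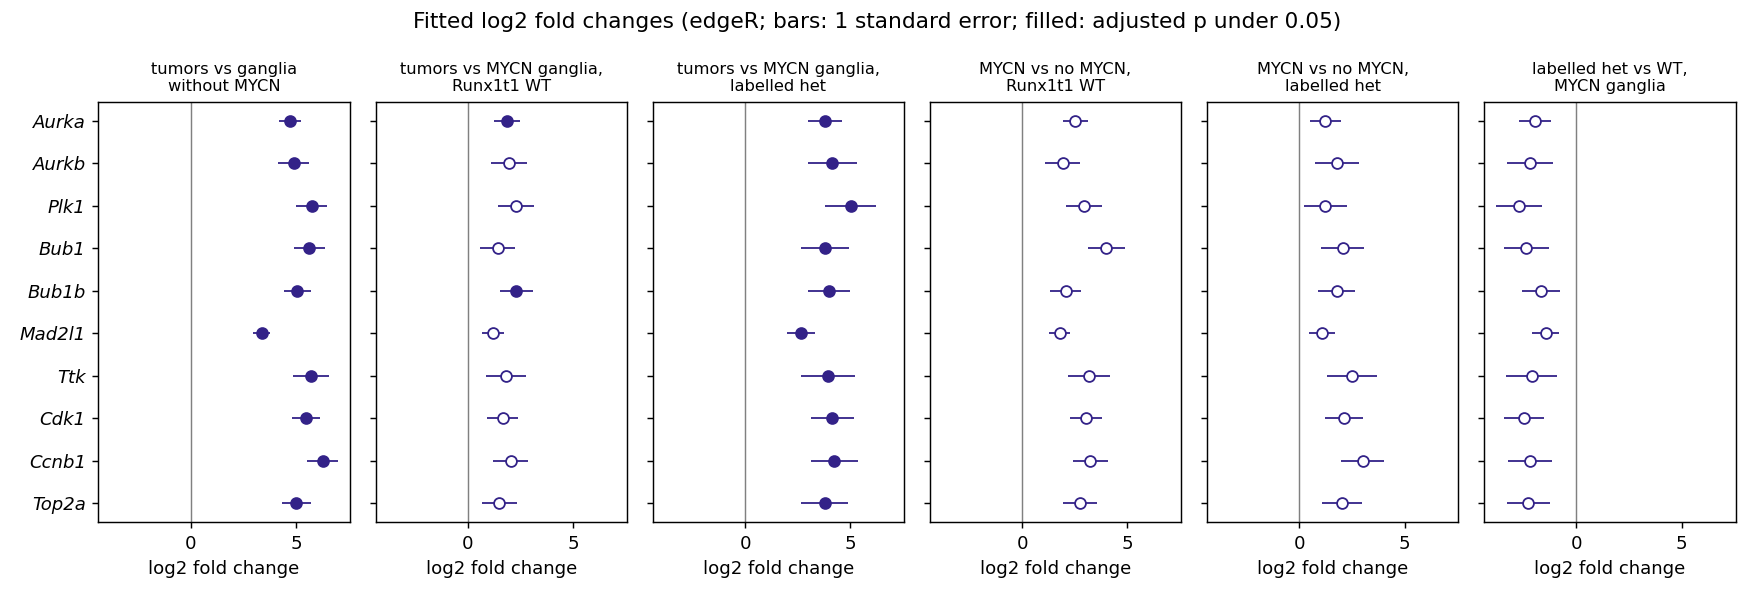
Fitted log2 fold changes of the 10 genes in 6 comparisons, with bars of 1 standard error and filled points at adjusted p under 0.05. All 10 points are filled for tumors against transgene-free ganglia and against MYCN het ganglia, 2 (Aurka, Bub1b) against MYCN WT ganglia, and none between groups of ganglia.

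The Runx1t1 label moved no gene past the threshold. In MYCN ganglia the 10 genes were lower in fitted value with the het label, with a median log2 difference of −2.20, from −1.46 (Mad2l1, SE 0.64) to −2.75 (Plk1, SE 1.10). Their adjusted p values lay between 0.355 and 0.477 (edgeR), 6 were lower at an unadjusted p under 0.05, beside 7.42% of all genes, and DESeq2 called 0. Over all genes, in either direction, 0.0120% were called by edgeR and 1.89% by DESeq2. MYCN WT and MYCN het ganglia overlapped for all 10 genes, with MYCN WT replicate 3 below MYCN het replicate 2 for each, whereas for 10.6% of all genes the 3 MYCN WT ganglia lay above both MYCN het ganglia. Without MYCN WT replicate 1 the median was −1.23, and without MYCN het replicate 2 it was −3.53. Both MYCN het libraries were shallow. Among libraries under 20000000 counts the only MYCN WT library was replicate 1, and the median there was −3.25. With all libraries kept, no cell type marker was called between the labels in MYCN ganglia (edgeR). Median log2 differences were 2.57 for adrenal cortex, −2.04 for lymphocyte and −2.87 for lymphoid precursor markers. Of 14 neuron markers, 2 had an unadjusted p under 0.05 (edgeR). The part of these cells in the values of the 10 genes was not tested.

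In ganglia without the transgene, the het label went with a median log2 difference of −1.41 for the 10 genes, and again none was called (adjusted p = 0.993 for each, edgeR). There were 2 lower at an unadjusted p under 0.05, beside 3.76% of all genes, Aurkb at −2.05 (SE 0.92) and Ccnb1 at −1.99 (SE 0.92). DESeq2 called 0 of the 10 as well. Over all genes the called share was 0% by edgeR and 0.0309% by DESeq2. Without WT replicate 2 the median was −0.42. In the same comparison all 9 tested lymphocyte markers (median −5.85) and 4 of 8 myeloid markers (median −1.88) had an unadjusted p under 0.05, none passed, and their part in the values of the 10 genes was not tested. Whether the effect of the transgene differed between the labels was tested as an interaction, which called none of the 10 genes by edgeR or DESeq2, beside 0% of all genes by edgeR and 0.192% by DESeq2. Its log2 values ran from −1.93 (Bub1, SE 1.35) to −0.15 (Aurkb, SE 1.38), and none of the 10 had an unadjusted p under 0.05, beside 3.01% of all genes with a negative value at that p. The median of −0.71 moved to −1.76 without transgene-free WT replicate 2 and to 0.11 without MYCN WT replicate 1. Standard errors ran from 0.81 to 1.55.

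The 10 genes moved together. Over the 16 libraries, the Pearson correlation of log2(CPM + 1) (CPM, counts scaled to the library total) was 0.965 (Bub1b with Mad2l1) to 0.995 (Cdk1 with Top2a) across the 45 pairs. Over the 12 ganglia it was 0.918 to 0.991. These points share groups and libraries, so the values describe the pattern only. Over the 4 tumors alone the correlations ran from −0.45 (Plk1 with Top2a) to 0.990 (Plk1 with Bub1b), over 4 libraries only. In tumor 1, Plk1 and Bub1b were the lowest of the tumors, at 79.9 and 105.6 TPM, while Top2a was the highest, at 339.8 TPM.

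Outside the 10, the genes whose pattern over 16 libraries lay closest to the mean of the 10 were the replication gene Mcm10 (r = 0.998), the condensin gene Ncaph, the helicase genes Mcm7 and Mcm2, and the spindle motor Kifc1. With TPM in place of CPM, Spag5 took the place of Kifc1. Over the 12 ganglia they were Mcm10 (r = 0.996), the motor Kif11, Skp2, Racgap1 and Ncaph. Mcm10 was at 60.8 TPM on average in tumors and at 1.63 TPM in transgene-free ganglia. Runx1t1 ranked 1325th by the same measure over 16 libraries (r = 0.926) and 974th over the 12 ganglia (r = 0.879).

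Other genes of mitosis and of the rest of the cell cycle, in 9 lists of 136 genes, were read in tumors against transgene-free ganglia, where 30.6% of all genes were called higher. The lists were chosen with earlier results of these data known, so their counts describe these genes only. All 5 Aurora partners and passenger complex genes rose, from Bora, an activator of Plk1 (3.60 on the log2 scale), to the survivin gene Birc5 (5.02). Of 9 other checkpoint genes 8 rose, led by Kntc1 (5.31), and Mad2l1bp, whose product helps to silence the checkpoint, did not pass (0.28, SE 0.19, adjusted p = 0.219, edgeR). All 22 centromere and kinetochore genes rose, from Cenpt (0.66) to Spc25 (5.33), and so did all 22 spindle motor and cytokinesis genes, from Ckap5 (1.06) to Kif2c (6.11). All 10 condensin and mitotic chromosome genes rose, from Ncaph2 (1.12) to Ncapg (5.09), and all 24 S-phase genes, from Ccne1 (1.63) to Rrm2 (5.43). Of 18 mitotic entry regulators 17 rose. Cdc25c, the phosphatase that activates Cdk1, had the largest difference, 6.46, and Ensa, which restrains a phosphatase opposing Cdk1, fell by 0.33 (SE 0.14, adjusted p = 0.0479, edgeR).

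The anaphase-promoting complex list split. Of its 17 genes 13 rose, 1 fell and 3 did not pass, with a median log2 difference of 0.98. The E2 enzyme gene Ube2c was the highest, at 5.73, and the subunit gene Anapc11 fell by 0.45 (SE 0.14, adjusted p = 0.0111, edgeR). Among 8 other cell cycle kinases tested 6 rose, led by Pbk (5.78). Plk2, a relative of Plk1 known as a stress and activity induced gene, fell by 1.83 (SE 0.25, adjusted p = 2.80e-05, edgeR). Aurkc, the germline Aurora kinase, was too low to be tested. Plk1 and Plk2, of the same kinase family, thus moved in opposite directions.

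Between MYCN WT and transgene-free WT ganglia few genes of these lists passed. The counts were 2 of 22 kinetochore genes, 2 of 9 checkpoint genes, 2 of 17 anaphase-promoting complex genes, 1 each of the mitotic entry, motor, kinase and S-phase lists, and 0 of the Aurora partner and condensin lists. All were higher with MYCN. These calls were lost with a replicate block or with only the groups compared, since no gene of the whole table was then called. The same held without transgene-free WT replicate 1, 3 or 4, and without MYCN WT replicate 1 or 4. With all libraries 0.834% of all genes were called higher. Without transgene-free WT replicate 2, where 3.46% of all genes were, 20 of 22 motor and cytokinesis genes passed, 17 of 22 kinetochore genes, 17 of 24 S-phase genes and 5 of 5 Aurora partners. In the same fit 12 of 18 mitotic entry regulators, 7 of 10 condensin genes, 5 of 9 checkpoint genes, 5 of 8 kinases and 5 of 17 anaphase-promoting complex genes passed. All of these calls were lost when that fit was given a replicate block or a depth term, or when MYCN WT replicate 1 was left out as well, since no gene of the whole table was then called. Between the labels in MYCN ganglia, none of the 9 lists held a gene past the threshold.

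In GENCODE vM21 (GRCm38), Cdk1 spans positions 69335146 to 69352938 of chromosome 10, Ccnb1 100778650 to 100786570 of chromosome 13 and Plk1 122159439 to 122169873 of chromosome 7. Aurka lies at 172356190 to 172370535, Bub1 at 127801122 to 127831865 and Bub1b at 118598211 to 118641591, all on chromosome 2. Aurkb (69045647 to 69051664) and Top2a (98992943 to 99024189) lie on chromosome 11, Mad2l1 (66535390 to 66547220) on chromosome 6 and Ttk (83834689 to 83872389) on chromosome 9. All are protein coding. The only annotated overlaps are small RNAs inside Top2a and a gene model opposite Plk1, and none has a row in the count table. A processed pseudogene of Ccnb1, Ccnb1-ps, also has no row, so how its reads were assigned is unknown.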

How the data were processed

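RNA of 12 celiac ganglia and 4 tumors was measured as gene-level expected counts and as TPM, in 16 libraries. The deposited expected counts and TPM were both made by the authors with STAR, SAMtools and RSEM on mm10, per the submitters' processing notes, without pooling of libraries. The annotation and the strand setting of the counting are not given in the sources used here. The molecule label reads polyA RNA, whereas the extraction protocol describes total RNA and a stranded total RNA kit, and which applies was not settled. The labels give neuroblastoma as the cell type of every sample, ganglia included, and Hom was read as homozygous wild type. Expected counts were rounded to whole numbers. Library totals were 10692299 to 38618757 counts.

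Genes with low counts were removed with filterByExpr, which left 16665 of 24411 genes (19904 had a count in any library) and all 10 mitotic genes. TMM scaling and edgeR's quasi-likelihood test (edgeR 4.0.16, R 4.3.3) were applied to all 5 groups in 1 fit, with 9 contrasts, Benjamini-Hochberg adjustment over all genes of each contrast and a threshold of 0.05. CPM was computed from the counts of the genes tested, with TMM scaling. Levels were put on the scale log2(value + 1) for correlations. Tables and figures were made with Python 3.11.15, pandas 2.3.3, numpy 2.4.6 and matplotlib 3.10.9. The fit was tested on simulated data with known changes in tumors only. No change between groups of ganglia and no outlying library was simulated.

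The 10 genes were named in every comparison. From each pathway list the genes with the highest and lowest log2 difference in tumors against transgene-free ganglia were named, with the genes not tested, and the 5 genes most correlated with the mean of the 10 over 16 libraries and over 12 ganglia. The mitotic genes and all lists were chosen with earlier results of these data known. 4 list genes were matched by older symbols. Of the marker genes, Cd3e, Rag2, Ptcra, Vpreb1, Hbb-bs and Klf1 were too low to be tested. Nothing in the labels says that replicates came from separate animals, so p-values measure the spread between these samples, which may be technical.

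Alternatives were upper-quartile scaling, no low-count filter, a minimum of 10 counts in every library of a group, DESeq2 1.42.0, a replicate block, a fit of only the groups compared, a term for library depth, libraries over or under 20000000 counts, and each replicate left out. Another 3 were chosen after seeing the data: leaving out transgene-free WT replicate 2 together with MYCN WT replicate 1, and leaving out the former with a replicate block or with a depth term. A comparison of protein sequences was planned and was not run.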

Additional observations from a re-analysis of the deposited data

Results flagged for a closer look

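In the group of 4 transgene-free WT ganglia, replicate 2 lay far above the others for 6 of the 10 genes. Its gap to the next library, as a share of the range of the whole group, was 0.957 for Aurka, 0.897 for Aurkb and 0.873 for Plk1. It was 0.833 for Ttk, 0.990 for Ccnb1 and 0.899 for Top2a. Each share was above the 95% critical value of Dixon's test for 4 samples, which chance passes in about 1 of 20 independent groups. The 20 groups read, the 10 genes in the transgene-free WT ganglia and in the tumors, are not independent, since the genes move together and the 6 values come from the same 4 libraries, so that rate does not apply to their number. No tumor stood out in this way. The lymphocyte and myeloid markers of that library are given in the report, and their part in these values was not tested.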

How the results depend on the processing

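Tumors exceeded transgene-free ganglia for all 10 genes under every alternative run. Against MYCN het ganglia the count was 10 throughout, except that leaving out 1 library gave 1 to 10, the 1 being Aurka without MYCN het replicate 1. Against MYCN WT ganglia the count of 2 became 7 with DESeq2 and with a term for library depth, 1 with only the groups compared, 10 with only libraries over 20000000 counts, and 0 to 7 with 1 library left out. It became 10 without transgene-free WT replicate 2 and MYCN WT replicate 1, 4 without the former and with a replicate block, and 5 without the former and with a depth term. It was 3 with the filter of 10 counts. Over the whole table the genes called in either direction went from 5755 of 16665 to 6849 of 16159 with DESeq2, 6417 of 16665 with a depth term, 4264 of 15410 with only the groups compared, 7101 of 16473 over 20000000 counts, 7745 of 16517 without that pair, 5369 and 6976 of 16533 without transgene-free WT replicate 2 and with the block or the depth term, and 5837 of 14818 with the filter of 10 counts. Between MYCN WT and transgene-free WT ganglia the count of 0 became 1 with upper-quartile scaling, with no filter on low counts and with the filter of 10 counts, 4 with a depth term, 9 with DESeq2, and 0 to 10 with 1 library left out. The 10 came without transgene-free WT replicate 2. The whole table went from 156 genes called to 238, 198 and 200 with those scalings and filters, 308 with a depth term, 1285 with DESeq2 and 675 without that replicate. It went to 1811 without MYCN WT replicate 3. It fell to 0 with a replicate block, with only the groups compared, and without transgene-free WT replicate 1, 3 or 4 or MYCN WT replicate 1 or 4. With transgene-free WT replicate 2 left out, a replicate block or a depth term brought the count of the 10 back to 0. For all MYCN against all transgene-free ganglia the count of 0 became 9 with DESeq2, 0 to 9 with 1 library left out (9 without transgene-free WT replicate 2 and 9 without MYCN WT replicate 3), and 1 without transgene-free WT replicate 2 and MYCN WT replicate 1. Without the former, a replicate block or a depth term gave 0 here too. The whole table went from 7 genes called to 356 with DESeq2, 192 and 720 without those single replicates and 25 without the pair. It fell to 0 with a replicate block, with only the groups compared and with a depth term. The cause of these changes was not tested. The other 4 comparisons had a count of 0 in every alternative. Gene by gene, 6 of the 9 comparisons were followed. None of the 10 genes reversed in them, 1022 values kept their direction and side of the threshold, 100 moved past it and 18 fell short of it. Depth splits gave no value where a group had no library on that side.

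Samples of the same replicate number did not deviate together more than others did. The r was −0.492 to 0.331 over 25 pairs of the same number (median −0.016). It was −0.514 to 0.514 over the 76 other pairs (median −0.018). With so few libraries in a group, this check cannot decide whether the numbers pair the samples. With a replicate block on all libraries the counts were 10, 2 and 10 for tumors against transgene-free, MYCN WT and MYCN het ganglia. Of all 16665 genes tested, 9968, 5038 and 7576 were called in those comparisons, in either direction. The count was 0 for the 6 other comparisons. In these, over all genes, 1 was called between the labels in MYCN ganglia and 0 in each of the rest. The lowest counts in a library were 2 for Ttk, 6 for Bub1 and 10 for Cdk1.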
